A study of Homo sapiens with 4 samples.

Results

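Complex I is the NADH dehydrogenase of mitochondria, and its nuclear genes nearly all carry symbols that begin with NDUF. All protein-coding genes with such a symbol were taken, except NDUFA4L2, a gene induced by low oxygen that is not a complex I subunit. This gave 47 of the 60671 genes in the count table. They comprised 39 genes of the subunit series and 8 NDUFAF genes, which encode assembly factors, proteins that help to build the enzyme without staying in it. The subunit series included NDUFA4, whose protein is now counted with complex IV, and NDUFC2-KCTD14, a read-through of 2 neighbouring genes that had 0 counts in every library. The remaining 46 genes were expressed highly enough to test.

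RNA had been sequenced from SK-N-BE(2), a long-established human neuroblastoma cell line in which MYCN is amplified. In the shNC group the cells carried a scramble short hairpin RNA, and in the shMETTL14 group a hairpin against METTL14, a subunit of the methyltransferase that writes N6-methyladenosine (m6A) into RNA. There were 2 libraries in each group. The labels name them as replicates without saying whether they came from separate cultures, so that p-values measure only the spread between these libraries. The methods describe 2 METTL14 hairpins in a lentiviral vector, and the labels do not say which of them a library carried.

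Complex I takes electrons from NADH and passes them through a flavin and a chain of iron-sulfur clusters to ubiquinone, pumping protons as it does so. Its core subunits carry out this chemistry. Those of the matrix arm are encoded in the nucleus and those of the membrane arm by mitochondrial DNA, while the many accessory subunits surround and stabilise the core. Neuronal cells depend on the enzyme for much of their ATP, and inherited defects in it often present as disease of the brain.

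Before the values, the start regions of the genes are shown. The study followed YY1 and ETS1 as regulators of METTL14, and both bind short words of sequence that were searched for there. Promoters of 250 bases before to 50 bases after the transcription start (RefSeq, GRCh38.p14) were found for 40 of the 47 genes. The word GCCATNTT, the core of the YY1 motif, was present on either strand in 15 of these 40 genes (37.5%), against 6.58% of all 35116 promoters and 12.5% of the 10404 tested protein-coding genes with a promoter. In 11 of the 15 it stood as AANATGGC on the strand of the gene, and in 9 of those its ATG was the annotated start codon, so that the word and the start of translation shared letters. Examples are given for 6 genes, from those that rose most to those that did not pass the test, with the word in capitals, 5′ to 3′ on the strand of the gene.
NDUFAF8, plus strand, chr17:81239318-81239343: gacggacctAAGATGGCggcctccag
NDUFA9, plus strand, chr12:4649115-4649140: ttgtgggaaAAGATGGCggctgccgc
NDUFS6, plus strand, chr5:1801406-1801431: cagcggcgcAAAATGGCggcggcgat
NDUFA6, minus strand, chr22:42090731-42090756: tgctttggcAAGATGGCggggagcgg
NDUFS3, plus strand, chr11:47579080-47579105: catctgagtAACATGGCggcggcggc
NDUFS7, plus strand, chr19:1383915-1383940: gccgaggccAAGATGGCggtgctgtc

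The palindromic core word of the NRF1 motif, bound by a transcription factor of respiratory genes, was present in 3 of the 40 genes (7.5%), against 1.24% of all promoters and 2.65% of the tested protein-coding genes. The 3 sites are shown with the word in capitals, which reads the same on both strands, because all 3 genes passed the test described below.
NDUFAF5, plus strand, chr20:13785016-13785041: ccgcgctgGCGCATGCGCacaaaaag
NDUFA8, minus strand, chr9:122159766-122159791: tgccggatGCGCATGCGCaggcgccg
NDUFB4, plus strand, chr3:120596169-120596194: agcacttcGCGCATGCGCatatcacc
The ETS word CCGGAAGT was found in NDUFA13 and NDUFS1, 2 of the 40 genes (5%), against 4.14% of all promoters and 9.92% of the tested protein-coding genes. These matches describe the letters in the window and not a bound factor.

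METTL14 (ENSG00000145388) was examined as a check of the labels. Its level was 37.8 and 39.4 CPM (the count relative to the TMM-scaled size of the library) in the shNC libraries and 15.5 and 16.7 CPM in the shMETTL14 libraries. The shMETTL14 libraries were both under the shNC libraries, and 41.7% of the control level remained (log2 fold change -1.26, standard error 0.0832, edgeR adjusted p = 3.64e-11).

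After METTL14 knockdown, 32 of the 46 tested complex I genes were higher and 0 were lower at an edgeR adjusted p under 0.05, and 14 did not pass the test. By comparison, 27.2% of the 16309 genes tested in the whole table were called higher and 25.3% lower, or 52.5% in either direction. The changes were small. The median log2 fold change of the 46 genes was 0.34, with an SD of 0.29 across genes, whereas the median of all genes tested was -0.00095. In 37 of the genes both shMETTL14 libraries exceeded both shNC libraries, which was so for 38.0% of all genes tested, and in 4 they lay below both, which was so for 37.6%. The median difference between replicate libraries of the same gene was 0.11 on the log2 scale in either group, against a median absolute log2 fold change of 0.35 for these genes. The 0 genes called lower compare with 1 gene at an unadjusted p under 0.05, and with 0 in DESeq2.

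Few of the genes moved far. At least a 1.5-fold rise was called for 6 of the 46 genes, against 7.44% of all genes tested. These were NDUFAF4, NDUFAF8 and NDUFAF5 among the assembly factors and NDUFA9, NDUFS5 and NDUFS6 among the subunits. NDUFAF4 alone reached 2-fold, and 3.08% of all genes tested had a higher log2 fold change. At an adjusted p under 0.01, 30 of the 46 genes were higher, against 21.8% of all genes tested, and DESeq2 called 29 higher, against 18.5% of the 16972 genes for which it gave an adjusted p. Since this is RNA from whole cultures, a change in RNA per cell and a change in the share of cells of a type cannot be told apart in any of these values.

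**Figure D1:**
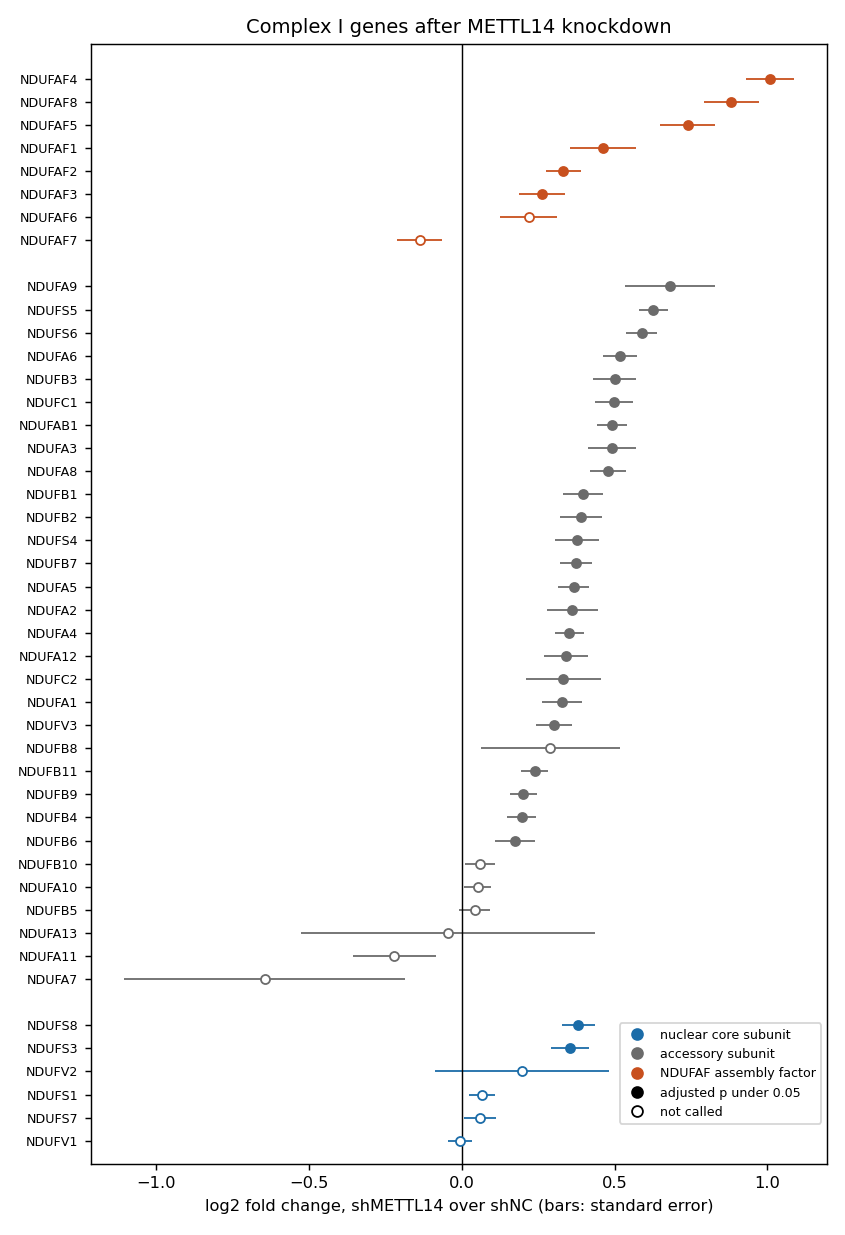
Log2 fold change of 45 of the 46 tested complex I genes, shMETTL14 over shNC (x axis), with its standard error, in 3 blocks for nuclear core subunits, accessory subunits and NDUFAF assembly factors. Filled points passed an adjusted p of 0.05, and all 32 of these lie to the right of 0, while most of the core subunits are open points near 0.

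The 7 nuclear core subunits form the matrix arm, where NADH is oxidised and ubiquinone is bound. Of these, 2 were higher, NDUFS8 and NDUFS3, against 27.2% of all genes tested, and 5 did not pass the test. Their median log2 fold change was 0.07, and the median of their levels relative to the shNC mean was -0.05 and 0.05 in the shNC libraries and 0.04 and 0.11 in the shMETTL14 libraries on the log2 scale, so that by this measure the groups overlapped. The median rested on small values: it was 0.12 without shMETTL14 library 1, 0.11 without shNC library 2, 0.04 without shMETTL14 library 2, 0.02 with scaling by library size, -0.00068 with upper quartile scaling and 0.12 with offsets for length and GC content, under which 3 core subunits were called higher.

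NDUFS8 (ENSG00000110717, chr11:68030617-68036644) carries iron-sulfur clusters close to the quinone site. It was at 107 and 123 CPM in the shNC libraries and at 145 and 155 CPM in the shMETTL14 libraries. The groups did not overlap, and the log2 fold change was 0.38 (standard error 0.0541, adjusted p = 3.77e-06).

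NDUFS3 (ENSG00000213619, chr11:47565336-47584562), which joins the quinone-binding module early in assembly, was at 58.9 and 68.8 CPM without and at 79.0 and 84.1 CPM with the METTL14 hairpin. Here too the groups were apart, with a log2 fold change of 0.35 (standard error 0.0621, adjusted p = 5.5e-05).

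The other core subunits did not pass the test. NDUFV1 (ENSG00000167792, chr11:67605653-67612554), which binds NADH and the flavin, was at 255 and 256 CPM in the shNC libraries and at 255 and 253 CPM in the shMETTL14 libraries. Both knockdown libraries were below both controls by a margin smaller than 1 CPM, and the 95% interval of its log2 fold change of -0.01 ran from -0.09 to 0.07, the narrowest of the core subunits. NDUFS1 (ENSG00000023228, chr2:206114817-206159603), the largest subunit of the matrix arm and a carrier of iron-sulfur clusters, was at 147 and 141 CPM and then at 151 and 150 CPM, slightly above both controls, with a log2 fold change of 0.07 (standard error 0.0431, adjusted p = 0.201). NDUFS7 (ENSG00000115286, chr19:1383527-1395589), which holds the last cluster before ubiquinone, was at 82.6 and 88.0 CPM against 85.7 and 92.2 CPM. Its groups overlapped, with a log2 fold change of 0.06 (standard error 0.0519, adjusted p = 0.35).

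NDUFV2 (ENSG00000178127, chr18:9102630-9134345), an iron-sulfur protein beside NDUFV1, had 36 and 36 counts in the shNC libraries and 37 and 45 in the shMETTL14 libraries. At this depth a change was not detectable, and the interval of its log2 fold change of 0.20 ran from -0.40 to 0.79.

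**Figure D2:**
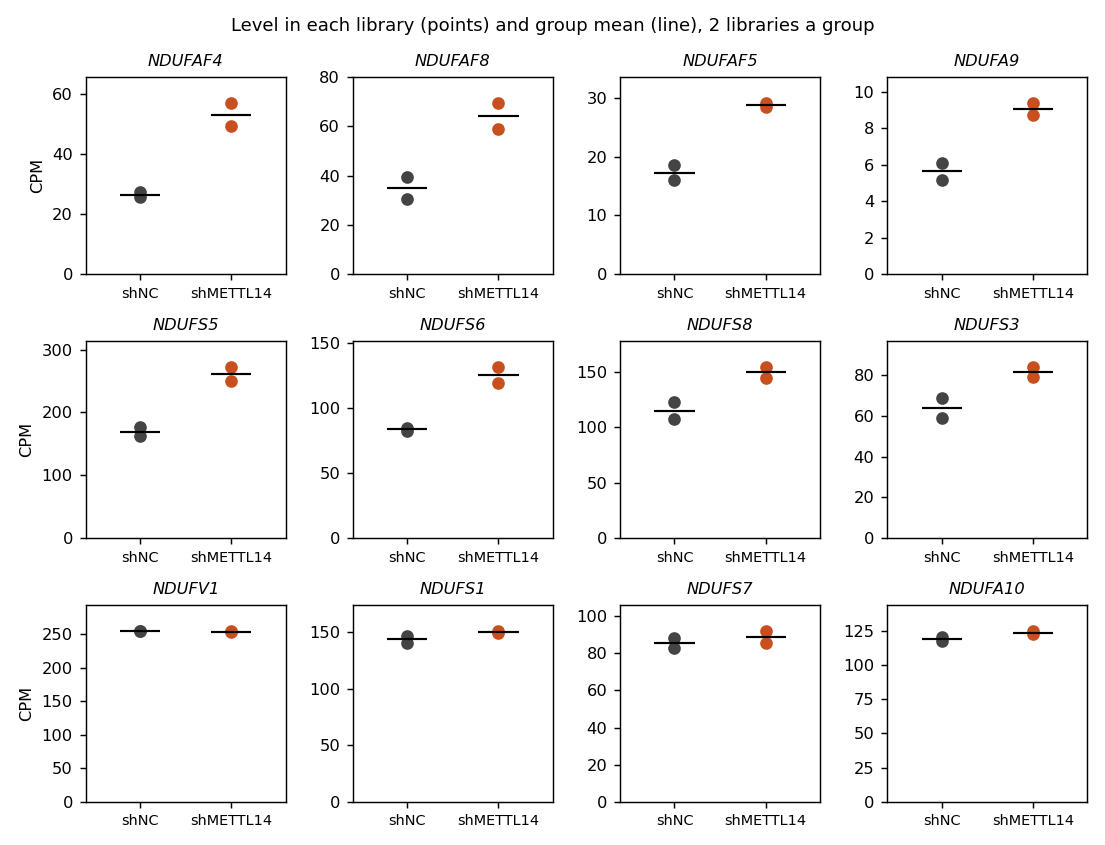
Level of 12 complex I genes in CPM (y axis, starting at 0) in the 2 shNC and the 2 shMETTL14 libraries, with each library as a point and the group mean as a line. NDUFAF4 goes from 25.6 and 27.3 CPM to 49.3 and 57.2 CPM, whereas the 4 points of NDUFV1 lie between 253 and 256 CPM.

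Accessory subunits accounted for 24 of the 32 genes called higher. Of 31 tested, the other 7 did not pass the test, and 0 were lower. Their median log2 fold change was 0.35, or 0.28 above the median of the core subunits. This gap is from the main fit, where the medians were 0.07 for core subunits and 0.34 for all tested subunits. With offsets for length and GC content these 2 medians were 0.12 and 0.23. The levels of the accessory subunits relative to the shNC mean had medians of -0.04 and 0.04 in the shNC libraries and of 0.29 and 0.42 in the shMETTL14 libraries. By name class, 10 of 14 NDUFA genes were higher (median 0.36), as were 8 of 11 NDUFB genes (median 0.24), both tested NDUFC genes (median 0.41), 3 of 3 accessory NDUFS genes (median 0.59) and NDUFV3 (0.30). NDUFB subunits sit in the membrane arm, and NDUFS4, NDUFS6 and NDUFV3 in the part of the matrix arm that oxidises NADH.

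NDUFA9 (ENSG00000139180, chr12:4649095-4694317), which lies at the junction of the arms near the quinone site, had the highest log2 fold change of the subunits. It was at 6.12 and 5.17 CPM in the shNC libraries and at 8.73 and 9.40 CPM in the shMETTL14 libraries, without overlap. The log2 fold change was 0.68 (standard error 0.147, adjusted p = 0.000512), and its 99 to 181 counts per library were few beside those of most subunits.

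NDUFS5 (ENSG00000168653, chr1:39026318-39034636) lies on the intermembrane side of the membrane arm. It was at 162 and 176 CPM and rose to 250 and 273 CPM, with both knockdown libraries above both controls (log2 fold change 0.63, standard error 0.0481, adjusted p = 4.35e-10). Per kilobase of reference transcript it also had the highest level of the 46 genes in the shNC group, 309 CPM per kb.

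NDUFS6 (ENSG00000145494, chr5:1801400-1816605), a zinc-binding subunit of the matrix arm whose start codon falls in the YY1 word printed above, was at 82.3 and 85.1 CPM and rose to 120 and 132 CPM. The groups did not overlap (log2 fold change 0.59, standard error 0.051, adjusted p = 2.88e-09). NDUFA6 (ENSG00000184983, chr22:42085525-42090955) holds the acyl carrier protein NDUFAB1 on the matrix arm. It was at 133 and 150 CPM against 191 and 214 CPM, again with all knockdown values above all control values (log2 fold change 0.52, standard error 0.0548, adjusted p = 6.27e-08). NDUFAB1 itself, which also serves mitochondrial fatty acid synthesis, had a log2 fold change of 0.49 (standard error 0.0491, adjusted p = 2.48e-08).

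NDUFB3 (ENSG00000119013, chr2:201071433-201085750), a subunit of the far end of the membrane arm, was at 39.99 and 45.5 CPM and then at 57.1 and 63.7 CPM. NDUFC1 (ENSG00000109390, chr4:139266880-139302551), a small subunit of the membrane arm, was at 42.0 and 45.4 CPM and then at 61.1 and 62.2 CPM. In either gene the knockdown libraries stood above the controls, with log2 fold changes of 0.50 (standard error 0.0699, adjusted p = 3.12e-06) for NDUFB3 and 0.50 (standard error 0.061, adjusted p = 5.15e-07) for NDUFC1. The 18 other accessory subunits that were called higher had log2 fold changes between 0.17 (NDUFB6, adjusted p = 0.0299) and 0.49 (NDUFAB1). In all 18 both knockdown libraries lay above both controls, which was so for 38.0% of all genes tested. These 18 genes were picked by their call, so this count is no separate support. They included NDUFS4 (0.38), a subunit whose loss causes Leigh syndrome, NDUFA1 (0.33), one of those encoded on the X chromosome, and NDUFA4 (0.35), counted with complex IV.

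At the low end stood accessory subunits of very different depth. NDUFA10 (ENSG00000130414, chr2:239892450-240025402), which has the fold of a nucleoside kinase, was at 118 and 121 CPM against 122 and 125 CPM. NDUFB10 (ENSG00000140990, chr16:1959508-1961975) was at 100 and 105 CPM against 104 and 110 CPM, and NDUFB5 (ENSG00000136521, chr3:179604690-179627647), like NDUFB10 a subunit of the membrane arm, was at 81.5 and 76.7 CPM against 79.6 and 83.2 CPM. The libraries of NDUFB10 and NDUFB5 overlapped between groups, and those of NDUFA10 did not, by a margin of less than 2 CPM. Their log2 fold changes were 0.05, 0.06 and 0.04 for NDUFA10, NDUFB10 and NDUFB5, with 95% intervals that reached no higher than 0.14, 0.16 and 0.15.

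The 3 lowest accessory subunits had few counts. NDUFA7 (ENSG00000267855, chr19:8308768-8321396), a subunit of the matrix arm, had 24 and 14 counts in the shNC libraries and 9 and 15 in the shMETTL14 libraries, with overlap (log2 fold change -0.64, 95% interval -1.60 to 0.31, adjusted p = 0.25). NDUFA11 (ENSG00000174886, chr19:5891276-5904006), a membrane subunit that contacts complex III in the supercomplex, had 179 and 166 counts against 141 and 153, with the knockdown libraries below (log2 fold change -0.22, standard error 0.135, adjusted p = 0.177). NDUFA13 (ENSG00000186010, chr19:19515736-19529054), also known as GRIM-19, had 12 and 15 counts against 9 and 17. For this gene the interval of -1.05 to 0.96 spanned 0 widely, and a change was not detectable at this depth. NDUFB8, a membrane-arm subunit and the last of the 7 that did not pass the test, was at 2.51 and 3.45 CPM against 3.52 and 3.74 CPM, with the knockdown libraries just above the controls (0.29, adjusted p = 0.3).

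These low counts coincided with overlapping annotation. In NDUFV2, NDUFA7, NDUFB8, NDUFA11 and NDUFA13, between 44.1% and 82.9% of the bases of the reference transcript also belong to another gene on the same strand, in most cases one without a name of its own. In NDUFC2 and NDUFA9 it was 17.1% and 11.8%, and in the read-through NDUFC2-KCTD14 it was 100%. Reads that fall on shared bases can be set aside as ambiguous when counts are made, so that the levels of these genes are uncertain. The 39 other genes shared at most 10% of their bases in this way, and none of them had fewer than 211 counts in a library. Among those 39, 30 were higher, 0 were lower, and the median log2 fold change was 0.35. This split was chosen after the values had been seen.

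**Figure D3:**
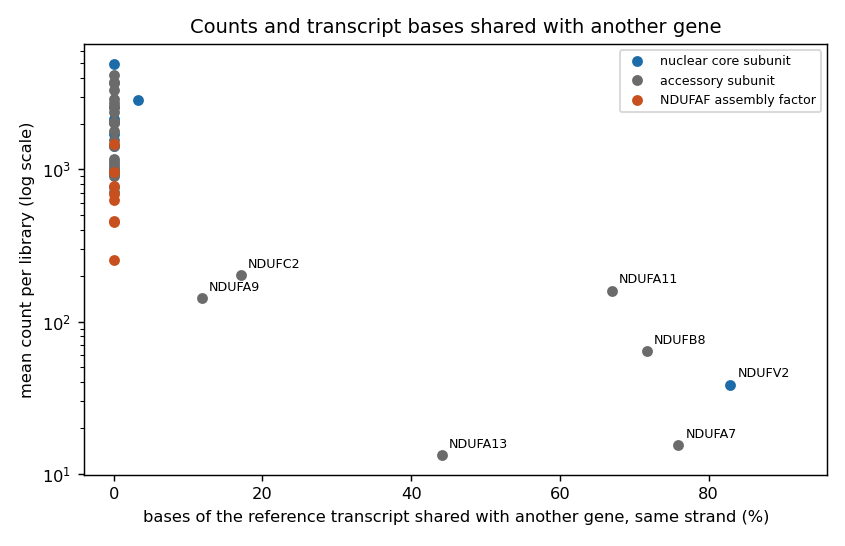
Mean count per library (y axis, log scale) of the 46 tested genes against the percentage of reference transcript bases that each shares with another gene on the same strand (x axis). The 7 labelled genes, which share more than 10%, have the 7 lowest mean counts. Every gene at or under 10% has a mean of at least 254.75.

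Overlap with genes on the opposite strand was annotated for 45.8% of the bases of the NDUFB11 transcript, 44.5% for NDUFA1, 37.9% for NDUFS7, 26.0% for NDUFB9, 24.1% for NDUFA2 and 22.6% for NDUFAF3. The strand setting of the counting is not given in the sources used here, and reads of such pairs cannot then be told apart. Pseudogenes named after 19 of the 47 genes were also in the table, 59 in all. They took more than 1% of the summed counts of gene and pseudogenes in 5 genes, at most 29.4% for NDUFV2 in shNC library 1, 6.87% for NDUFA9, 4.35% for NDUFB8, 1.92% for NDUFAF4 and 1.49% for NDUFA5.

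The 3 highest log2 fold changes of the 46 genes were those of assembly factors. Of the 8 NDUFAF genes, 6 were higher, against 27.2% of all genes tested, 0 were lower and 2 did not pass the test. Their median log2 fold change was 0.40. Both shMETTL14 libraries were above both shNC libraries in 7 of the 8, against 38.0% of all genes tested. NDUFAF4, NDUFAF8 and NDUFAF5 led, and each acts around the quinone-binding module of the matrix arm.

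NDUFAF4 (ENSG00000123545, chr6:96889313-96897881) binds the early quinone-module intermediate together with NDUFAF3. It was at 25.6 and 27.3 CPM in the shNC libraries and at 49.3 and 57.2 CPM in the shMETTL14 libraries, with no overlap. The mean rose from 26.5 ± 1.18 CPM (SD, n = 2) to 53.3 ± 5.57 CPM (SD, n = 2), and the log2 fold change was 1.01 (95% interval 0.85 to 1.17, adjusted p = 4.94e-10). Its partner NDUFAF3 (ENSG00000178057, chr3:49020459-49023495) was at 28.7 and 29.9 CPM and then at 35.2 and 35.1 CPM. The knockdown libraries were again above, with a log2 fold change of 0.26 (standard error 0.0745, adjusted p = 0.00545), a call that DESeq2 did not make (0.27, adjusted p = 0.0726) and that was lost with offsets for length and GC content, where the value itself fell to 0.11 (adjusted p = 0.234).

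NDUFAF5 and NDUFAF8 also work as a pair. NDUFAF5 modifies an arginine of the core subunit NDUFS7, and NDUFAF8 stabilises NDUFAF5. NDUFAF8 (ENSG00000224877, chr17:81239239-81241281) was at 39.3 and 30.4 CPM and rose to 59.0 and 69.6 CPM, and NDUFAF5 (ENSG00000101247, chr20:13784950-13821582), whose promoter holds the NRF1 word printed above, was at 18.5 and 16.0 CPM and rose to 29.2 and 28.5 CPM. In neither gene did the groups overlap, although the shNC libraries of NDUFAF8 were spread more widely than those of most members. The log2 fold changes were 0.88 (standard error 0.0894, adjusted p = 3.18e-08) for NDUFAF8 and 0.74 (standard error 0.090, adjusted p = 4.65e-07) for NDUFAF5. Their target NDUFS7 did not pass the test, as given above.

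NDUFAF1 (ENSG00000137806, chr15:41387349-41402519) belongs to the MCIA complex, which assembles part of the membrane arm. It was at 11.0 CPM in each shNC library and at 15.7 and 14.6 CPM in the shMETTL14 libraries, all of them above the controls (log2 fold change 0.46, standard error 0.108, adjusted p = 0.00109). NDUFAF2 (ENSG00000164182, chr5:60945129-61153037), a late factor related in sequence to the subunit NDUFA12, was at 65.0 and 69.5 CPM and then at 89.3 and 79.96 CPM. The groups were apart (log2 fold change 0.33, standard error 0.0573, adjusted p = 4.48e-05), and NDUFA12 had a log2 fold change of 0.34 (standard error 0.0727, adjusted p = 0.000459).

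NDUFAF6 and NDUFAF7 did not pass the test. NDUFAF6 (ENSG00000156170, chr8:94895767-95116455), needed for the early membrane module, was at 22.9 and 20.3 CPM in the shNC libraries and at 23.5 and 26.9 CPM in the shMETTL14 libraries, and NDUFAF7 (ENSG00000003509, chr2:37231631-37253403), a mitochondrial arginine methyltransferase, was at 36.4 and 38.1 CPM against 34.7 and 33.0 CPM. The knockdown libraries of NDUFAF6 lay above and those of NDUFAF7 below both controls. Their log2 fold changes were 0.22 (standard error 0.0922, adjusted p = 0.0518) and -0.14 (standard error 0.0727, adjusted p = 0.118).

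Subunits and assembly factors were then set side by side. Of the 38 tested subunits 26 were higher (68.4%), and of the 8 assembly factors 6 (75.0%). The medians were 0.34 and 0.40, a difference of -0.06 on the log2 scale (subunits minus factors). Ranges were -0.64 to 0.68 for subunits and -0.14 to 1.01 for factors. The mean log2 CPM of the subunits exceeded that of the factors by 0.66 and 0.78 in the shNC libraries and by 0.45 and 0.57 in the shMETTL14 libraries, so that the shMETTL14 libraries were both lower. The direction of the difference of medians depended on single libraries: it was 0.03 without shMETTL14 library 1 and -0.19 without shMETTL14 library 2. With 2 libraries in each group the smallest two-sided p that an exact permutation test can give is 0.333, and the difference was not tested.

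Other assembly factors of complex I do not carry the NDUF prefix. Of a list of 13, 5 were higher and 2 lower, against 27.2% and 25.3% of all genes tested. The median log2 fold change of the 13 was 0.07. The highest were TMEM70 (0.42, adjusted p = 0.000321), DMAC1 (0.41, adjusted p = 9.83e-06) and TMEM126B (0.39, adjusted p = 1.95e-05), the last a member of the MCIA complex with NDUFAF1. NUBPL, which delivers iron-sulfur clusters to complex I, was lower (-0.39, adjusted p = 0.00339), as was ECSIT, another MCIA protein (-0.23, adjusted p = 0.000816). TMEM186, also found with MCIA, had a log2 fold change of -0.27 and did not pass the test (adjusted p = 0.0879).

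**Figure D4:**
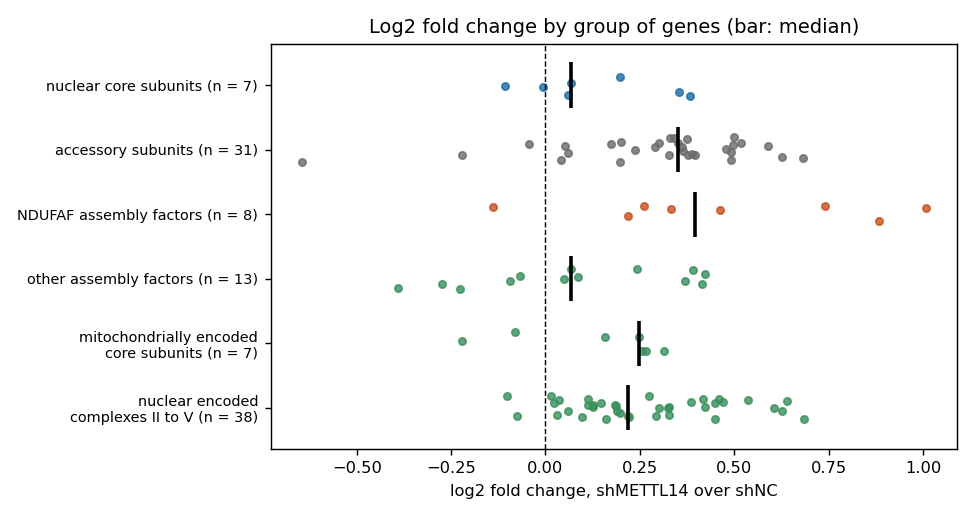
Log2 fold change of single genes (points, x axis) in 6 groups (rows), with the median of each group as a black bar and the median of all genes tested as a dashed line. Median bars of accessory subunits (0.35) and NDUFAF factors (0.40) lie to the right of those of core subunits (0.07) and other assembly factors (0.07).

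The 7 core subunits of the membrane arm are encoded by mitochondrial DNA. Of these, 5 were higher and 1 was lower, against 27.2% and 25.3% of all genes tested. The median log2 fold change of the 7 was 0.25. MT-ND2, which had the highest value, was at 3215 and 3222 CPM in the shNC libraries and at 4064 and 3944 CPM in the shMETTL14 libraries, well apart (0.32, standard error 0.0334, adjusted p = 6.17e-08). MT-ND1 and MT-ND6 followed with 0.27 and 0.26. At the low end, MT-ND4L was at 395 and 356 CPM against 328 and 315 CPM, with the knockdown libraries below (-0.22, standard error 0.0452, adjusted p = 0.000276), although it shares its transcript with MT-ND4 (0.16, adjusted p = 0.000336). MT-ND5 overlapped between groups (-0.08, adjusted p = 0.14). Nuclear copies of these genes exist, and reads may have been split between them.

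Nuclear genes of complexes II to V were listed for comparison. Of 38, 27 were higher and 1 was lower, against 27.2% and 25.3% of all genes tested. The median log2 fold change of the 38 genes was 0.22. Their highest values were 0.68 for UQCR10, 0.64 for ATP5MF and 0.63 for ATP5MG, subunits of complexes III and V, and the lowest were -0.10 for UQCRC2 (adjusted p = 0.0461), -0.07 for UQCR11 and 0.01 for SDHC. The difference from complex I was not tested.

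Of 12 regulators of respiratory genes, 6 were higher and 1 was lower (median log2 fold change 0.18), against 27.2% and 25.3% of all genes tested. The 3 coactivators of the PGC-1 family were the highest, PPARGC1A at 1.08 (22 and 23 counts against 44 and 51, adjusted p = 0.00531), PPRC1 at 0.60 (adjusted p = 1.97e-09) and PPARGC1B at 0.53 (adjusted p = 9.27e-05). GABPA, the DNA-binding part of the ETS factor NRF-2, was lower: it was at 77.2 and 81.3 CPM in the shNC libraries and at 55.7 and 56.1 CPM in the shMETTL14 libraries (-0.50, standard error 0.0534, adjusted p = 6.27e-08). NRF1 had a log2 fold change of -0.20 (adjusted p = 0.0676) and TFB1M one of -0.05, and neither passed the test. For YY1, at 127 and 116 CPM against 130 and 129 CPM, the log2 fold change was 0.09 (standard error 0.0476, adjusted p = 0.11). With respect to the words printed above, 10 of the 15 genes with the YY1 word and 18 of the 24 tested genes without it were higher, with medians of 0.35 in either set. All 3 genes with the NRF1 word were higher, with log2 fold changes of 0.74 for NDUFAF5, 0.48 for NDUFA8 and 0.20 for NDUFB4. Of the 36 tested genes without the NRF1 word, 25 were higher. For the ETS word, 0 of the 2 genes with it and 28 of the 37 tested genes without it were higher. The part of these words in the changes was not tested.

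Transcript length moved with the fold change across the whole table. Tested protein-coding genes with a reference transcript under 1 kb had a median log2 fold change of 0.20 (616 genes, 44.8% called higher), those of 1 to 2 kb one of 0.12 (2490 genes, 38.2% higher), those of 2 to 4 kb one of 0.05 (4983 genes, 34.0% higher) and those over 4 kb one of -0.03 (4720 genes, 27.6% higher). Complex I transcripts are short, with a median of 944 bases for tested subunits and 1905 bases for NDUFAF factors. Within the same ranges the complex I genes had medians of 0.36 (24 genes, 18 higher), 0.24 (11 genes, 7 higher), 0.30 (6 genes, 4 higher) and 0.30 (5 genes, 3 higher). With offsets for length and GC content fitted to each library, 30 of the 46 genes were higher and 1 was lower. The medians were then 0.23 for subunits and 0.30 for NDUFAF factors. The length in these offsets was that of all annotated exons of a gene together. They were therefore not an adjustment for the reference transcript length used above.

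**Figure D5:**
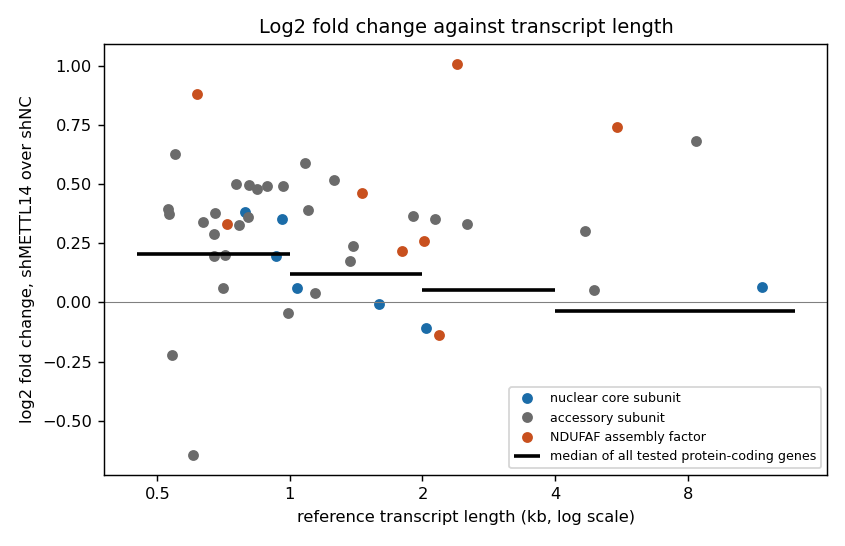
Log2 fold change of the 46 tested complex I genes (y axis) against the length of their reference transcript in kb (x axis, log scale), with the median of all tested protein-coding genes in 4 length ranges as black bars. The bars step down from 0.20 under 1 kb to -0.03 over 4 kb, and most complex I genes lie above the bar of their range.

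Copies of GGACT, the most common form of the word that the METTL3-METTL14 enzyme methylates, were counted in the reference transcripts. Tested subunits had a median of 0.665 copies per kb, and 15 of the 38 (39.5%) had none. For the NDUFAF factors it was 0.897 copies per kb with 2 of the 8 lacking the word, and for all tested protein-coding genes 0.935 copies per kb with 8.72% lacking it. Tested protein-coding genes under 1 kb had a median of 1.08 copies per kb, and 42.9% lacked the word.

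The libraries were of even depth, between 18925786 and 19886214 counts in genes, and the biological coefficient of variation was 3.45%. All 9 markers of noradrenergic neuroblastoma cells were detected, with a summed level of 5553 to 5684 CPM in the shNC and 5539 to 5592 CPM in the shMETTL14 libraries; 2 of them were higher and 7 lower. Of the fibroblast markers, LUM and PDGFRB were abundant in every library, and the summed level of all 5 was 400.1 to 402.9 CPM and then 376.9 to 385.0 CPM, with 1 higher and 3 lower. Among markers of blood cells, CD3E and CD14 had 1 to 12 counts and PTPRC 29 to 40 counts (adjusted p = 0.41). Among epithelial markers, CDH1 had 0 or 1 count, KRT19 had 31 to 52 counts (adjusted p = 0.238), and EPCAM was lower, with 93 and 90 counts in the shNC and 62 and 48 counts in the shMETTL14 libraries (log2 fold change -0.72, adjusted p = 0.00583). The summed level of the tested epithelial markers was 6.32 to 7.42 CPM and then 4.10 to 4.75 CPM. The part of these shifts in the complex I values was not tested.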

How the data were processed

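RNA was sequenced as paired ends from 4 SK-N-BE(2) libraries, 2 shNC and 2 shMETTL14, and the authors deposited 1 table of raw counts per Ensembl gene, without normalization. The submitters' processing notes name HISAT2 2.1.0, StringTie 1.3.6, HTSeq 0.13.5, edgeR and the build GRCh38. The annotation release and the strand setting are not given in the sources used here, so that reads of overlapping genes may be lost or misassigned. The 5 lines that name no gene, 19.1% to 19.9% of all counts per library, were left out, and 0 other sample columns were present. A gene name table held 60401 of the 60671 IDs, and GENCODE 29 held 58453 and gave coordinates, transcripts and overlaps on GRCh38. It need not be the authors' release.

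The main test was the quasi-likelihood F-test of edgeR 4.0.16 (R 4.3.3) on these counts, with TMM scaling, filterByExpr defaults (minimum count 10, minimum total 15) and the group as the design. All p-values are two-sided, and adjustment followed Benjamini and Hochberg across the 16309 genes kept. Fold changes are shMETTL14 over shNC. CPM values, standard errors and 95% intervals come from this fit, and cover counting error and the spread of these libraries. The procedure was also run on simulated counts. Far fewer genes were changed there than the 52.5% called here, so that run cannot show how scaling behaves when so many genes move. Alternatives were other scalings, filters, thresholds and memberships, a replicate block, leaving out each library, offsets for length and GC, and DESeq2 1.42.0. The offsets used the length of all annotated exons of a gene and the GC content of its reference transcript.

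The genes and lists were chosen with earlier results of these data known. Named in full were METTL14, the nuclear core subunits, the 6 highest and 6 lowest accessory subunits and all NDUFAF factors, and from each other list the 3 highest and 3 lowest log2 fold changes. The remaining genes are given by counts and ranges. Single values of 1 complex I gene and 1 marker are not reported here, and both remain in the counts and medians. NDUFAB1 and NDUFA12, named for their partners, the words of the promoters and the overlap values were picked out after their values were seen.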

Additional observations from a re-analysis of the deposited data

How the results depend on the processing

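Across 12 other fits, between 29 and 33 complex I genes were higher and at most 2 lower, and 27 genes, 22 subunits and 5 NDUFAF factors, were called higher in all 13 fits. NDUFB6, NDUFC2, NDUFB4, NDUFAF3 and NDUFB11 were lost in some fits, NDUFAF6 and NDUFS1 were gained, and NDUFAF7 was called lower in some. At least a 1.5-fold change left 6 calls. The NDUFAF median of 0.40 became 0.30 under length and GC offsets, 0.33 under upper quartile scaling and 0.35 when scaled by library size alone. The offsets gave 0.23 for the subunits. Leaving out 1 library gave 29 to 33 calls, medians of 0.24 (without shNC library 1) to 0.40 (without shMETTL14 library 1) for subunits and of 0.36 (without shMETTL14 library 1) to 0.47 (without shMETTL14 library 2) for NDUFAF factors, and differences of medians of -0.19 (without shMETTL14 library 2) to 0.034 (without shMETTL14 library 1). In fits with 3 libraries the lone sample is assumed to vary like the other group.

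Some genes that had not passed the test changed sign between fits, and NDUFA13 did so by the widest margin. Upper quartile scaling gave -0.015 for NDUFA10, -0.0077 for NDUFB10, -0.026 for NDUFB5, -0.00068 for NDUFS1 and -0.0078 for NDUFS7. Library size alone gave -0.0032 for NDUFB5. Length and GC offsets gave -0.10 for NDUFB10 and -0.043 for NDUFS7, and the fit without a filter gave 0.0038 for NDUFV1. With 1 library left out, NDUFA13 ranged from -0.57 to 0.35, NDUFV1 from -0.014 to 0.0057 and MT-ND5 from -0.16 to 0.0039. The cause was not tested in any of these.

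With the replicate number as a block, 34 complex I genes were called, 33 higher and 1 lower, with a median of 0.34 for subunits and 0.40 for NDUFAF factors. Deviations of libraries with the same number had a Pearson correlation of -0.00195 across all genes tested. In the complex I subunits, library 2 was above library 1 in both groups. Their median levels relative to the shNC mean were -0.04 and 0.04 for shNC and 0.27 and 0.40 for shMETTL14. For the NDUFAF factors these were -0.02 and 0.02 for shNC and 0.46 and 0.36 for shMETTL14. Whether libraries with the same number shared a batch was not tested.

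Depth limited the genes with few counts, NDUFA7, NDUFA13 and NDUFV2, whose 95% intervals spanned more than 1 unit on the log2 scale.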
